A study of Rattus norvegicus with 10 samples.

Results

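The genes described are those of the conjugation step of detoxification in rat liver: the glutathione S-transferases (GST), the microsomal glutathione S-transferases (MGST), the UDP-glucuronosyltransferases (UGT) and the cytosolic sulfotransferases (SULT). Members were the rows of the deposited gene table whose symbol is Mgst, Ugt, Sult or Gst with a class letter (a, k, m, o, p, t or z), followed by a digit. This gave 37 of 12555 rows under 34 symbols, made up of 19 cytosolic GST, 3 MGST, 8 UGT and 7 SULT rows. All 37 passed the filter on low counts, so no member row was lost at that step. Genes of these families without a row in the deposited table could not be examined. Messenger RNA had been sequenced in 10 liver libraries of wild-type rats, 5 from a normal diet group (normal 1 to 5) and 5 from a group under a 30% calorie-restricted diet throughout gestation (restricted 1 to 5). The label SGA (small for gestational age) marks the restricted group and AGA (appropriate for gestational age) the normal one. The labels give the material as hepatocytes of a cell line, whereas the design text calls it liver tissue, and neither gives strain, sex, age, litter, pooling or feeding state. Nothing says that the libraries came from separate animals, so the p-values measure only the spread between these libraries.

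Conjugation makes reactive or fat-soluble compounds easier to excrete. GST enzymes join glutathione to electrophiles, UGT enzymes add glucuronic acid to bilirubin, steroids, bile acids and drugs, and SULT enzymes transfer sulfate from the donor PAPS to phenols and steroids. Most of these genes are strongly expressed in hepatocytes, and in rats several sulfotransferases are known to differ between the livers of males and females.

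Libraries held 14936156 to 22104957 counts. The 10 hepatocyte markers examined were all present, at a summed level (in CPM, counts scaled to the size of the library) of 165463 to 196695 in the normal libraries and 147836 to 223408 CPM in the restricted ones. Their median log2 fold change was −0.050, with 2 of the 10 positive, and 1 of the 10 passed the test. This was Ttr, which fell from 5979 ± 1159 to 3649 ± 868 CPM (SD, n = 5; log2 fold change −0.71, edgeR adjusted p 0.0497). DESeq2 also called Ttr, but limma-voom called 0 of the 10, as did the fit with Kdm5d as a covariate described below. None of the 4 kidney markers examined has a row in the table, and 1 of the 4 intestinal markers does. In the bulk samples, fewer cells of a type and less RNA per cell cannot be told apart. The Y-linked gene Kdm5d had 20.9, 24.9, 25.6, 23.6 and 18.9 CPM in normal 1 to 5 and 19.3 CPM in restricted 5, and 0 counts in restricted 1 to 4. A count of 0 allows up to 3 counts, or 0.134 to 0.207 CPM in these 4 libraries, for counting error only. The labels give no sex, and in restricted 1 to 4 the diet and the absence of Kdm5d cannot be told apart. The 4 members called and the 3 sulfotransferase rows with an unadjusted p under 0.05 are therefore given with all 10 libraries, without restricted 5, for restricted 5 alone against the normal libraries, and with Kdm5d as a covariate.

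Of the 37 members, 4 changed between the groups at a Benjamini-Hochberg adjusted p of 0.05 in the edgeR quasi-likelihood test, 3 lower and 1 higher in the restricted group. The microsomal transferase Mgst3 and the mu class transferases Gstm1 and Gstm2 fell by 1.92-fold, 1.83-fold and 1.70-fold. The row of the UGT1 locus, with the symbol Ugt1a3, rose 1.77-fold. Of all 12367 genes tested, 4.09% passed the same threshold, against 10.8% of the members. At an unadjusted p of 0.05, 12 members passed (32.4%), 4 higher and 8 lower, beside 20.1% of all genes. The groups did not overlap in CPM for 4 members (10.8%), Mgst3, Gstm1, Gstz1 and Ugt1a3, beside 6.35% of all genes. The median log2 fold change of restricted minus normal was −0.018 over the members and 0.01 over all genes, with 18 members positive and 19 negative. With Kdm5d as a covariate 0 members passed, beside 0.978% of all genes, and 7 members had an unadjusted p under 0.05, beside 17.9% of all genes (DESeq2 and limma-voom were not run with it).

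**Figure D1:**
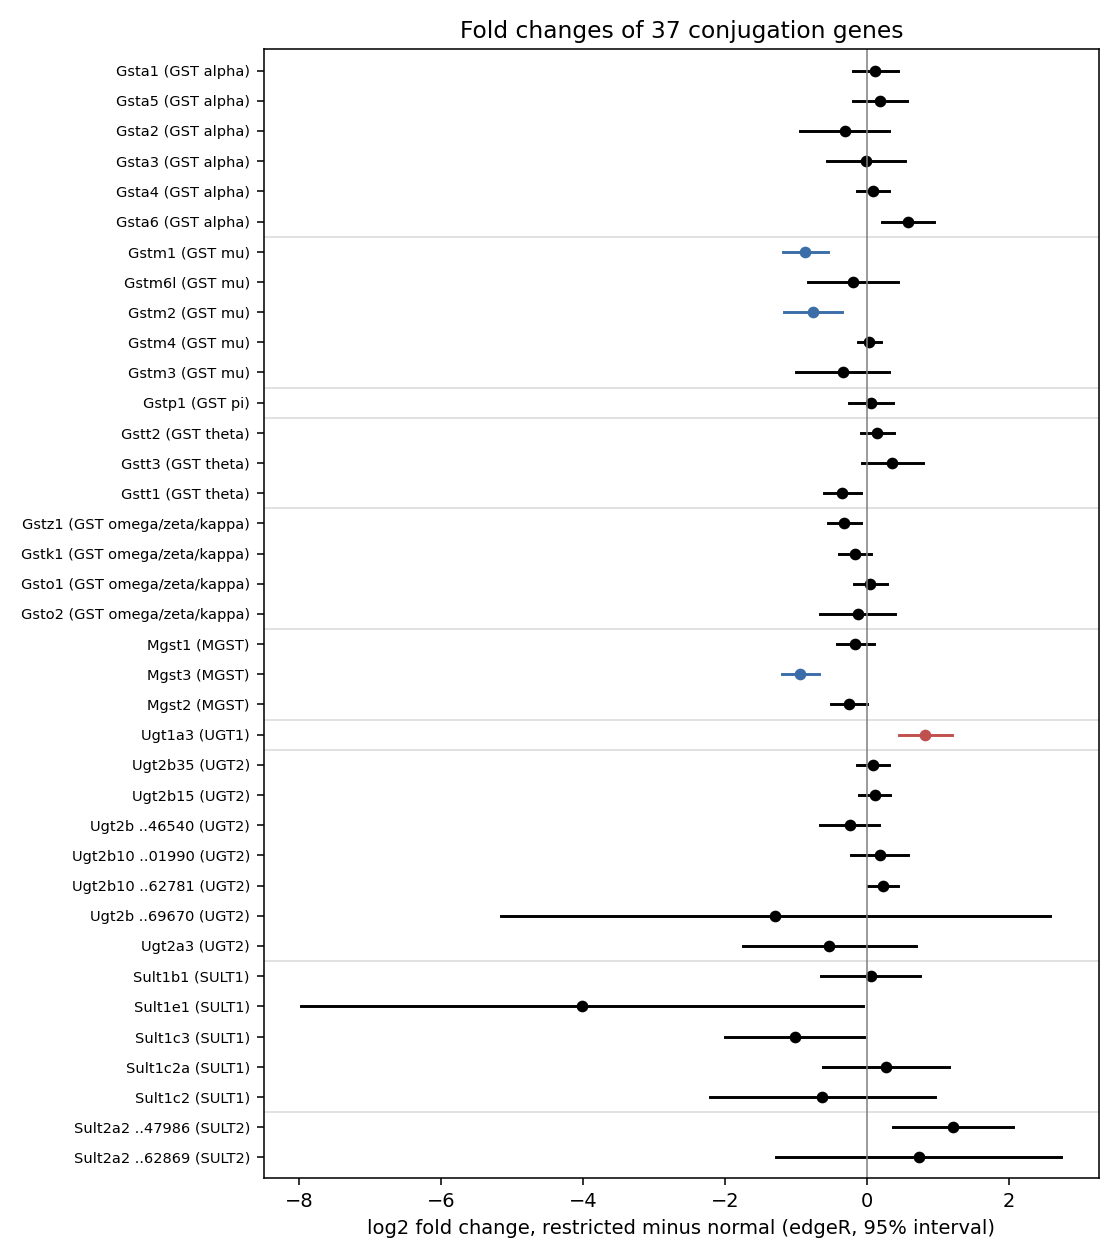
Log2 fold changes (restricted minus normal) of the 37 members from the edgeR fit of all 10 libraries, with 95% intervals, ordered by family. Blue (lower) and red (higher) mark the 4 members past an adjusted p of 0.05. The widest intervals belong to Sult1e1 and to Ugt2b ENSRNOG00000069670.

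Mgst3 (ENSRNOG00000004245) encodes a membrane enzyme that reduces lipid hydroperoxides with glutathione and can make leukotriene C4. It had 61.8, 87.6, 77.3, 84.3 and 71.6 CPM in normal 1 to 5 and 38.8, 35.6, 34.5, 43.3 and 47.1 CPM in restricted 1 to 5. Every restricted library lay below every normal one. The mean fell from 76.5 ± 10.3 to 39.8 ± 5.30 CPM (SD, n = 5), a log2 fold change of −0.94 ± 0.12 (SE; 95% interval −1.20 to −0.69; edgeR adjusted p 0.00266). Mgst3 also passed whichever single library was left out, at adjusted p of 0.00199 to 0.0112. In restricted 5 alone against the normal libraries the change was −0.70 (adjusted p 0.0658), and with Kdm5d as a covariate it was −0.68 (adjusted p 0.110).

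Gstm1 (ENSRNOG00000029726), a mu class subunit, conjugates epoxides and other electrophiles. Its level was 709, 810.1, 1040.5, 904 and 965 CPM in the normal libraries and 589, 507, 458, 354 and 511 CPM in the restricted ones. The groups did not overlap, and restricted 4 was the lowest library. The mean fell from 886 ± 130.0 to 484 ± 86.3 CPM (SD, n = 5), a log2 fold change of −0.87 ± 0.15 (SE; edgeR adjusted p 0.00880). It too passed without any single library, at adjusted p of 0.00980 to 0.0279. Restricted 5 alone gave −0.79 (adjusted p 0.0672), and the fit with Kdm5d gave −0.79 (adjusted p 0.168).

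Gstm2 (ENSRNOG00000018937), a second mu subunit, had 47.8, 70.0, 64.0, 58.1 and 87.0 CPM in the normal libraries and 32.3, 28.3, 40.1, 38.0 and 54.0 CPM in the restricted ones. Only restricted 5 reached the normal range, above normal 1. Its mean fell from 65.3 ± 14.6 to 38.5 ± 9.82 CPM (SD, n = 5), with a log2 fold change of −0.76 ± 0.19 and an edgeR adjusted p of 0.0447. The call held without normal 1 and without restricted 5 (log2 fold change −0.92, adjusted p 0.0125) and was lost without any other library, with adjusted p up to 0.107 without normal 5. In restricted 5 alone the change was −0.27 (adjusted p 0.622), and with Kdm5d as a covariate it was −0.27 (adjusted p 0.669). Mu class paralogs are alike in sequence, and the treatment of reads that match more than 1 of them is unknown here.

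**Figure D2:**
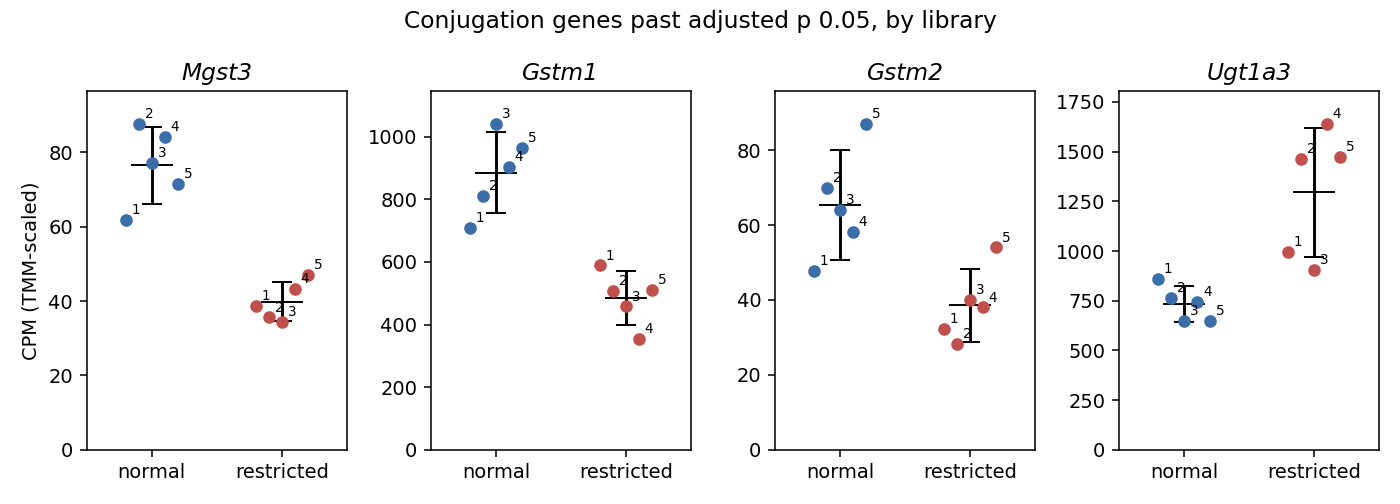
CPM of Mgst3, Gstm1, Gstm2 and Ugt1a3 in each library (numbers are the library numbers), with the mean and SD of each group of 5. The groups are apart for Mgst3, Gstm1 and Ugt1a3, and restricted 5 overlaps the normal range for Gstm2.

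The other 3 mu class rows did not pass the test. Gstm4 was the steadiest member of the class, at 41.1, 35.5, 38.9, 38.6 and 36.6 CPM in the normal libraries and 36.8, 38.6, 41.5, 40.5 and 37.3 CPM in the restricted ones. Its log2 fold change was 0.029 (95% interval −0.13 to 0.19). Gstm6l ran from 179.6 to 543 CPM within the normal group alone and had a log2 fold change of −0.20 (edgeR adjusted p 0.736). The row with the symbol Gstm3, whose full name in the table is that of mu 5, was low at 1.87 and 1.47 CPM. In the RefSeq assembly GRCr8, the genes with the symbols Gstm3, Gstm2, Gstm1 and Gstm4 are consecutive protein-coding genes, with no other between them.

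The promoter windows of the 3 members that fell are shown, from 250 bases before to 50 bases after the RefSeq start (build GRCr8), because these genes were lower together, with Sult1e1 beside them as the member with the largest fold change by size. Capitals mark matches, on either strand, to the 6 motifs searched: TGACNNNGC (the antioxidant response element bound by NRF2), TTCNNNGAA (STAT5), GCGTG (the core bound by the aryl hydrocarbon receptor with ARNT), TATAAA (the TATA box), CCAAT (bound by NF-Y) and TTGCNNAA (C/EBP).
Mgst3 (chr13:82080246-82080545, minus strand): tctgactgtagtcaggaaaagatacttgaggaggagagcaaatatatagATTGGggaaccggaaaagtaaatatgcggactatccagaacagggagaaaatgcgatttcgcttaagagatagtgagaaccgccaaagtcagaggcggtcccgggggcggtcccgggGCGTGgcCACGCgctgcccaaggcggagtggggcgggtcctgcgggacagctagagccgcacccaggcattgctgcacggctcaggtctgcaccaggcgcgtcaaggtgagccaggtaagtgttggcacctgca
Gstm1 (chr2:198343334-198343633, minus strand): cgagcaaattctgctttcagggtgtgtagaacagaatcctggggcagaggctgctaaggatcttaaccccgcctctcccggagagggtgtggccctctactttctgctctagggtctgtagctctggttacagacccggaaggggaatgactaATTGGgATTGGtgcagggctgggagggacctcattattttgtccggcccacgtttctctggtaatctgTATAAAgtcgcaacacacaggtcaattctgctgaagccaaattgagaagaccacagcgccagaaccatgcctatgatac
Gstm2 (chr2:198316868-198317167, minus strand): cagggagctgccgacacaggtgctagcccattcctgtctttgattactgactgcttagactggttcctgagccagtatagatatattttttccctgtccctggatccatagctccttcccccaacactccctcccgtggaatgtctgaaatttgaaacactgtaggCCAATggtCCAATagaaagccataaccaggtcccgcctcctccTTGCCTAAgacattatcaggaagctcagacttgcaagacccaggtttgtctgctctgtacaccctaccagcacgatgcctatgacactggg
Sult1e1 (chr14:20701230-20701529, plus strand): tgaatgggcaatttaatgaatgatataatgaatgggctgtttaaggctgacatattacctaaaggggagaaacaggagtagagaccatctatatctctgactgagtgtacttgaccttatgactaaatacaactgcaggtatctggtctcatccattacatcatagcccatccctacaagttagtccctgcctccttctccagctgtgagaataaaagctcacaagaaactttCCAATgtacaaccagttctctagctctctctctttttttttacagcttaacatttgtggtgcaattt
The Mgst3 window holds GCGTG once on each strand, at positions −84 and −77 from the start, and a CCAAT match at −201. The Gstm1 window holds TATAAA at −29 and CCAAT on the minus strand at −97 and −91. In the Gstm2 window CCAAT lies at −84 and −76 and TTGCNNAA at −41, and no TATAAA was found. The Sult1e1 window holds CCAAT at −17 and none of the other 5 motifs. No 2 of these matches overlap. The longest run shared by the Gstm1 and Gstm2 windows is atgcctatga, 10 bases that begin at positions 38 and 34. It lies after the start in both windows, so it is not a likeness of their upstream parts. Laid side by side without gaps, the windows had 28.3% identical bases. That count misses likeness that is shifted in position, such as the shared run, so it does not show how alike the windows are. Of 33469 promoter windows of this length, 37.5% hold CCAAT, 29.7% GCGTG, 14.2% TATAAA, 12.1% TGACNNNGC, 10.6% TTGCNNAA and 8.87% TTCNNNGAA. Of the 32 windows found for 30 member symbols, 17 hold CCAAT, 10 TTGCNNAA, 8 GCGTG, 8 TATAAA, 5 TGACNNNGC and 3 TTCNNNGAA. The 5 with TGACNNNGC are those of Gsta1, Gsta2, Gsta3, Gstp1 and Gstz1. None of these passed the test of the groups, beside 4 of all 37 members, so this count says nothing about the motif. A match describes these letters only and does not show a bound site.

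Among the other microsomal members, Mgst1, an abundant detoxifying enzyme of the endoplasmic reticulum, had 1027, 1174, 1292, 1113 and 1252 CPM in the normal libraries and 999, 943, 1200.0, 1189.6 and 883 CPM in the restricted ones. The ranges overlapped and the log2 fold change was −0.17 (95% interval −0.43 to 0.093; edgeR adjusted p 0.462). Mgst2, which takes part in leukotriene C4 synthesis, had 75.4, 67.6, 60.3, 77.1 and 61.2 CPM and 52.1, 53.6, 51.9, 73.6 and 53.5 CPM. The restricted values of 4 libraries lay below every normal value, and that of restricted 4 did not. Its log2 fold change of −0.26 had an unadjusted p of 0.0423 and did not pass (edgeR adjusted p 0.230).

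Of the 6 alpha class members, known as major GST subunits of rat hepatocytes, 0 passed (1 at an unadjusted p of 0.05). Their median log2 fold change was 0.099, with 4 positive and 2 negative. Gsta1 had 511, 529, 469, 770.1 and 625 CPM in the normal libraries and 635, 742, 673, 539 and 557 CPM in the restricted ones (log2 fold change 0.12, 95% interval −0.20 to 0.43). Gsta5, which in rats is known for conjugating the epoxide of aflatoxin, had 171 ± 31.2 and 194 ± 50.1 CPM (SD, n = 5; log2 fold change 0.18). The groups overlapped for both genes. Gsta6, a low member of the class, had 5.89, 8.97, 5.82, 7.73 and 7.01 CPM and 7.93, 11.7, 9.26, 11.7 and 12.2 CPM. All 5 restricted libraries lay above the normal mean, with restricted 1 inside the normal range. The log2 fold change of 0.57 ± 0.17 missed the threshold (edgeR adjusted p 0.0771), and it passed without restricted 1 (0.0461) and in DESeq2 (0.0289). Gsta2, Gsta3 and Gsta4 had log2 fold changes of −0.32, −0.018 and 0.083.

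Gstz1 is the zeta class enzyme that isomerises maleylacetoacetate in tyrosine breakdown. It had 276, 287, 268, 275 and 309.7 CPM in the normal libraries and 239.8, 196, 256, 251 and 190.3 CPM in the restricted ones. The groups did not overlap, yet the log2 fold change of −0.32 ± 0.11 did not pass (edgeR adjusted p 0.114). DESeq2 called it at 0.0429. Restricted 2 and restricted 5 were its lowest libraries, and in restricted 5 alone the change was −0.57 (adjusted p 0.0554).

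Gstt1 of the theta class, which acts on small halogenated compounds, had 32.7, 37.7, 39.1, 50.1 and 38.6 CPM and 31.6, 30.7, 36.4, 26.6 and 30.1 CPM. All 5 restricted values lay below the normal mean, with overlap from restricted 3, and the log2 fold change of −0.35 ± 0.12 did not pass (edgeR adjusted p 0.120). Gstt3 of the same class had 163 ± 41.5 and 208 ± 47.7 CPM (SD, n = 5; log2 fold change 0.35, edgeR adjusted p 0.332), and Gstt2 had 93.3 ± 11.9 and 103 ± 10.1 CPM (log2 fold change 0.14). Gstk1, the kappa class enzyme of mitochondria and peroxisomes, had 80.2 ± 10.3 and 71.3 ± 7.28 CPM and a log2 fold change of −0.17 (adjusted p 0.387). Gstp1, the pi class enzyme known as a marker of altered foci in rat liver, was low in every library, at 8.96, 9.80, 12.4, 11.8 and 11.0 CPM and 8.91, 12.7, 11.4, 13.3 and 9.78 CPM (log2 fold change 0.054). The omega class rows Gsto1 and Gsto2 had log2 fold changes of 0.045 and −0.13.

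The UGT1 locus encodes a set of enzymes with alternative starts and a shared last part, among them the one that conjugates bilirubin. A lone row represents it, with the symbol Ugt1a3 and the full name of member A1 (ENSRNOG00000018740), so individual isoforms cannot be told apart. It had 862, 765, 649, 744 and 649 CPM in the normal libraries and 995, 1464, 907, 1639 and 1472 CPM in the restricted ones. Every restricted library was above every normal one: restricted 2, 4 and 5 were high, and restricted 1 and 3 were close to normal 1. The mean rose from 734 ± 89.1 to 1295 ± 324 CPM (SD, n = 5), a log2 fold change of 0.82 ± 0.17 (SE; 95% interval 0.45 to 1.19; edgeR adjusted p 0.0210). Restricted 5 alone gave 1.00 (adjusted p 0.00967), the only member called in that fit, beside 6.49% of all genes. With Kdm5d as a covariate the change was 1.01 (95% interval 0.40 to 1.62; adjusted p 0.0929). Leaving out normal 3 gave an adjusted p of 0.0583, and it was 0.0527 without normal 4, 0.0640 without normal 5 and 0.0549 without restricted 2, and it was under the threshold without each of the other libraries.

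Of the 7 UGT2 rows, which conjugate steroids, bile acids, fatty acids and drugs, 0 passed the test, and their median log2 fold change was 0.081. In DESeq2 and limma-voom 0 passed as well, and 1 had an unadjusted p under 0.05 in edgeR. Ugt2b35, the highest of them by FPKM, had 556, 704, 646, 563 and 721 CPM in the normal libraries and 671, 680.4, 705, 706 and 613 CPM in the restricted ones. The 95% interval of its log2 fold change was −0.15 to 0.31. Ugt2b15 was as even, at 586 ± 41.8 and 629 ± 60.3 CPM (SD, n = 5), with an interval of −0.12 to 0.32. The Ugt2b10 row ENSRNOG00000062781 had 121, 103, 100.5, 119.7 and 109 CPM and 125, 129.5, 125, 153 and 114 CPM. All 5 restricted values lay above the normal mean, with overlap, and its log2 fold change of 0.22 did not pass (unadjusted p 0.0394, edgeR adjusted p 0.222). The other row of that symbol, ENSRNOG00000001990, whose full name in the table is that of member B17, had 234 ± 70.5 and 264 ± 44.4 CPM (SD, n = 5; log2 fold change 0.17).

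A UGT2 row with the symbol Ugt2b, of which RefSeq gives Ugt2b2 as a synonym, varied widely within both groups. ENSRNOG00000069670 had 432, 2831, 0, 6536 and 0 counts in normal 1 to 5 and 269, 181, 891, 202 and 2635 counts in restricted 1 to 5. Normal 3 and normal 5 had none, which allows up to 0.201 and 0.202 CPM, whereas normal 4 had 432 CPM. The other row under this symbol, ENSRNOG00000046540, was present in all 10 libraries at 213 to 466 CPM, and it was highest in normal 3 and normal 5, the libraries in which the first row was at 0. Neither row passed the test of the groups (edgeR adjusted p 0.715 and 0.492). Ugt2a3 also had a library apart, with 10.8 CPM in restricted 2 against 80.6 to 200.1 CPM in the other 9.

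The sulfotransferases included the largest fold change by size among the members, that of Sult1e1, yet 0 of 7 passed with all 10 libraries (3 at an unadjusted p of 0.05; 1 called in DESeq2 and 1 in limma-voom). Sult1e1 (ENSRNOG00000001957) sulfates estrogens, and rat liver is known to express it mostly in males. It had 53.1, 249, 333, 409 and 219.9 CPM in normal 1 to 5, 0.312, 0.162, 0.553 and 0 CPM in restricted 1 to 4 and 77.6 CPM in restricted 5. The first 4 restricted libraries held 7, 3, 8 and 0 counts, and restricted 5 held 1245, inside the normal range above normal 1. With all 10 libraries the log2 fold change was −4.01 ± 1.73 (SE; 95% interval −7.97 to −0.057; edgeR adjusted p 0.242), while limma-voom gave −8.44 and called it (adjusted p 0.0180). Without restricted 5 the fitted value was −9.91, a size that rests on the few counts of restricted 1 to 4, and it was called (adjusted p 0.00288). In restricted 5 alone the change was −1.71 (adjusted p 0.482), and with Kdm5d as a covariate it was −1.38 (95% interval −3.53 to 0.77; adjusted p 0.489). The 18 counts of restricted 1 to 4 together correspond to 0.255 CPM, beside 53.1 CPM in the lowest normal library.

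Sult1c3, an arylamine sulfotransferase that in rats is also known to be expressed mainly in male liver, had 135, 221, 279, 158 and 143 CPM in the normal libraries, 57.7, 44.7, 52.5 and 106 CPM in restricted 1 to 4 and 199 CPM in restricted 5. Restricted 1 to 4 lay below every normal library and restricted 5 lay among them. Its log2 fold change was −1.02 ± 0.44 with all libraries (edgeR adjusted p 0.231), −1.52 without restricted 5 (adjusted p 0.0325) and 0.092 in restricted 5 alone (adjusted p 0.924). The covariate fit gave 0.19 (adjusted p 0.876).

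Sult2a2 (ENSRNOG00000047986), whose full name in the table is that of member 6 of family 2A, stood the other way. The row is that of a hydroxysteroid sulfotransferase, of a subfamily known in rats for higher levels in female liver. It had 553, 519, 305, 897 and 843 CPM in the normal libraries, 1111, 1299, 2314 and 1859.9 CPM in restricted 1 to 4 and 610.0 CPM in restricted 5. Restricted 1 to 4 were above every normal library and restricted 5 was inside the normal range. The log2 fold change was 1.21 ± 0.38 (SE; edgeR adjusted p 0.111), 1.40 without restricted 5 (adjusted p 0.0450) and −0.031 in restricted 5 alone (adjusted p 0.983). The covariate fit gave −0.10 (adjusted p 0.946). DESeq2 called it with all 10 libraries at 0.00636. A second row of this symbol, ENSRNOG00000062869, has the full name of member 2. It ran from 1.78 to 63.1 CPM within the normal group and had a log2 fold change of 0.72 (edgeR adjusted p 0.694). Sult1b1, which sulfates thyroid hormones and phenols, had 153, 244, 232, 238 and 153 CPM and 148, 102, 221, 208 and 374 CPM. It was highest in restricted 5 and lowest in restricted 2, with a log2 fold change of 0.047 over all libraries and 0.88 in restricted 5 alone (adjusted p 0.103). In GRCr8 its neighbours are Sult1e1 and Ugt2a3, with 1 other protein-coding gene between each pair.

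**Figure D3:**
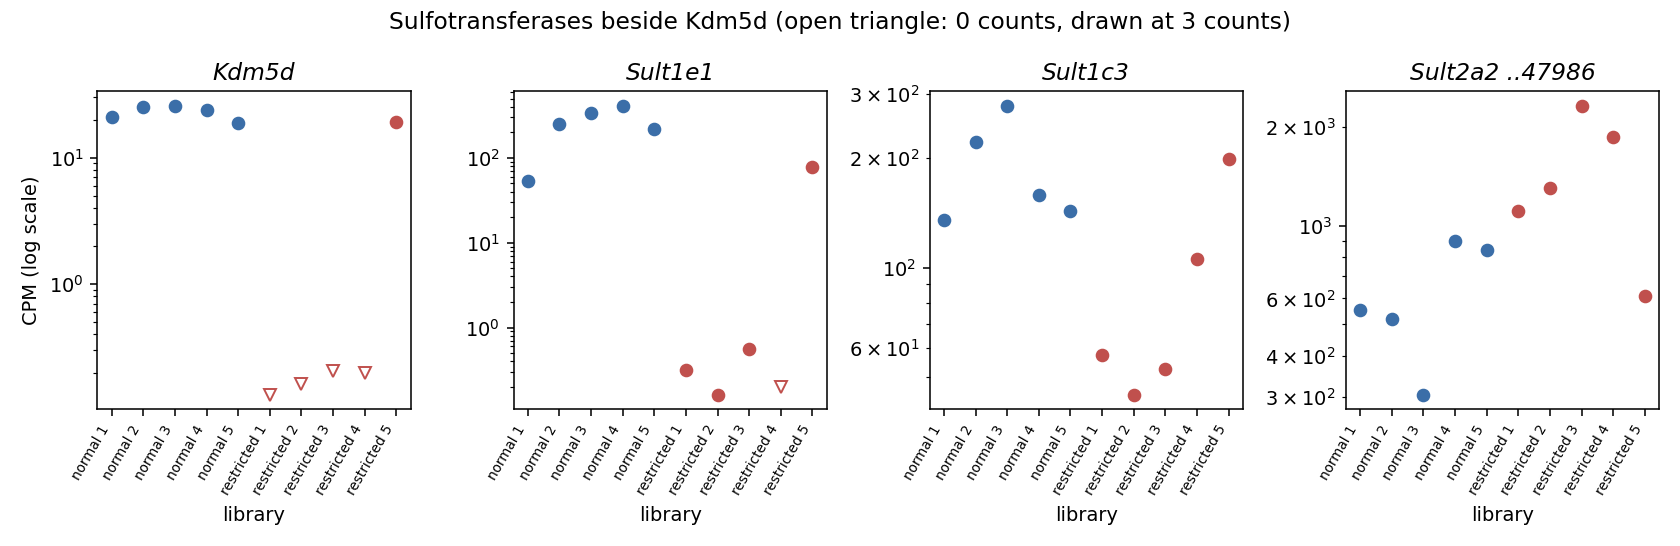
CPM on a log scale of the Y-linked gene Kdm5d and of 3 sulfotransferase rows in each library (blue normal, red restricted, open triangles for 0 counts drawn at 3 counts). Restricted 1 to 4, at 0 for Kdm5d, were below the normal libraries for Sult1e1 and Sult1c3 and above them for Sult2a2, and restricted 5 was inside the normal range of all 3.

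With restricted 5 left out, 7 members were called, beside 3.8% of all genes: the 4 above and the sulfotransferases Sult1e1, Sult1c3 and Sult2a2 (ENSRNOG00000047986). These fits share the 5 normal libraries, so their values are given side by side only. For Ugt1a3 the log2 fold change was 0.77 without restricted 5 and 1.00 in restricted 5 alone. For Gstm1 the values were −0.89 and −0.79, for Mgst3 −1.01 and −0.70, and for Gstm2 −0.92 and −0.27. The 11 markers of Kupffer cells and macrophages examined were all positive in the restricted group, with a median log2 fold change of 0.67 and 0 past the test (7 at an unadjusted p of 0.05, beside 20.1% of all genes, 3 in DESeq2, 0 in limma-voom). Their summed level was 929 to 1205 CPM over normal 1 to 5, 1030.4 CPM in the lowest restricted library and 2559 CPM in restricted 5, the highest. The 3 T and NK cell markers tested were positive too, with a median log2 fold change of 1.26 and 0 past the test (1 in DESeq2), at 1.21 to 4.03 CPM over normal 1 to 5 and 16.1 CPM in restricted 5, the highest. The 2 erythroid markers tested had a median of 0.66, and summed to 17.1 to 29.2 CPM in the normal and 20.4 to 58.5 CPM in the restricted group, with restricted 5 the lowest of the latter. Median log2 fold changes were 0.17 for cholangiocyte, 0.034 for endothelial and −0.0045 for stellate cell markers, and 0 passed. The part of Kdm5d or of any of these markers in the results was not tested.

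**Figure D4:**
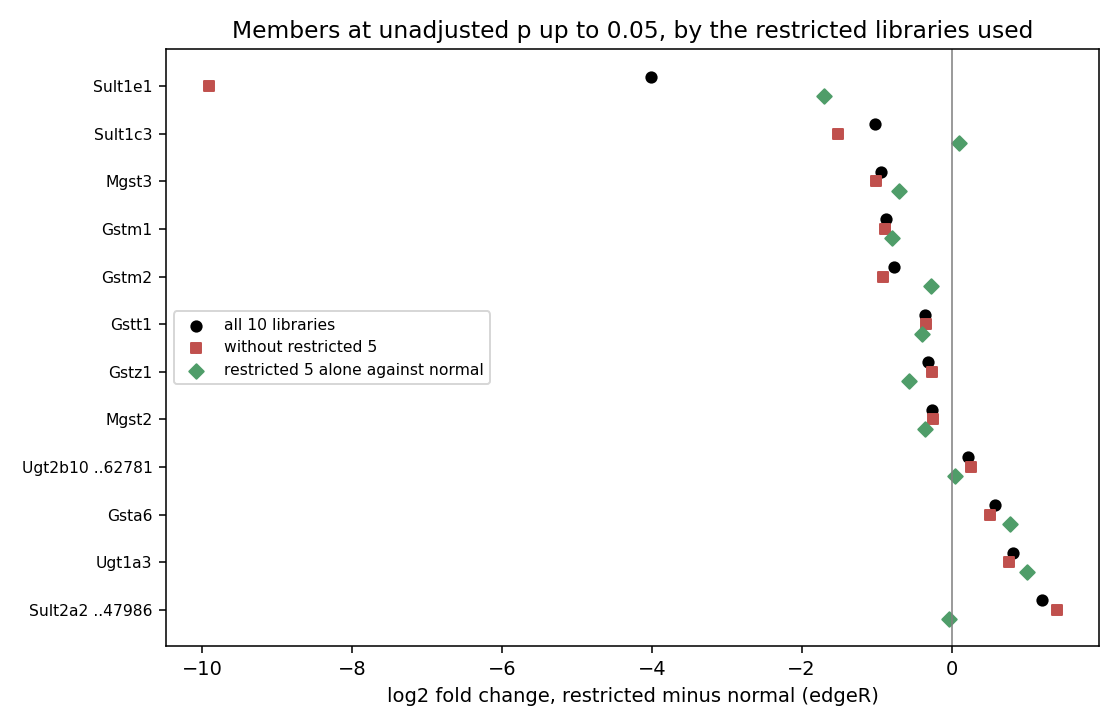
Log2 fold changes (restricted minus normal, edgeR) of the 12 members at an unadjusted p up to 0.05, from all 10 libraries (black), without restricted 5 (red) and for restricted 5 alone (green, 1 library against 5). The values lie close together for Mgst3, Gstm1 and Ugt1a3, less so for Gstm2, and far apart for Sult1e1, Sult1c3 and Sult2a2.

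Among the rows of the authors' deposited table, 3 members met the rule of p under 0.05 with an absolute log2 fold change above 1, beside 3.82% of all its genes. These were the sulfotransferases, at log2 fold changes of −4.01 for Sult1e1, −1.02 for Sult1c3 and 1.21 for Sult2a2 (ENSRNOG00000047986), and adjusted p of 0.128, 0.152 and 0.0308 in the authors' deposited table. Mgst3, Gstm1, Gstm2 and Ugt1a3 changed by less than that fold and had the 4 smallest adjusted p of the members there, 5.24e-10, 1.47e-06, 0.00357 and 0.000128 in the authors' deposited table.

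The members also differed in how much they varied between libraries of the same group. The median coefficient of variation of CPM was 18.7% in the normal and 17.8% in the restricted group. It passed 40% in at least 1 group for 11 members, among them all 7 SULT rows. Sult1b1 (23.0% and 49.1%), Sult1c3 (32.8% and 70.2%) and Sult2a2 ENSRNOG00000047986 (39.3% and 46.1%) passed it in the restricted group only. For each of these, restricted 5 lay outside the range of restricted 1 to 4. Gstm4 (5.68% and 5.12%) and Ugt2b15 (7.14% and 9.60%) were among the steadiest. At the other end stood Ugt2b ENSRNOG00000069670 (145% and 127%) and, in the restricted group, Sult1e1 (220.0%). Sult1c2, a low row at 1.18, 6.68, 9.83, 0.925 and 3.98 CPM and 1.11, 3.34, 6.63, 2.49 and 1.12 CPM, and Sult1c2a, at 20.9, 56.7, 57.1, 23.6 and 39.4 CPM and 38.1, 40.4, 88.8, 44.6 and 26.1 CPM, were both low in normal 1, normal 4 and restricted 5, and the first also in restricted 1. Their log2 fold changes were −0.63 and 0.26 (edgeR adjusted p 0.662 and 0.748).

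**Figure D5:**
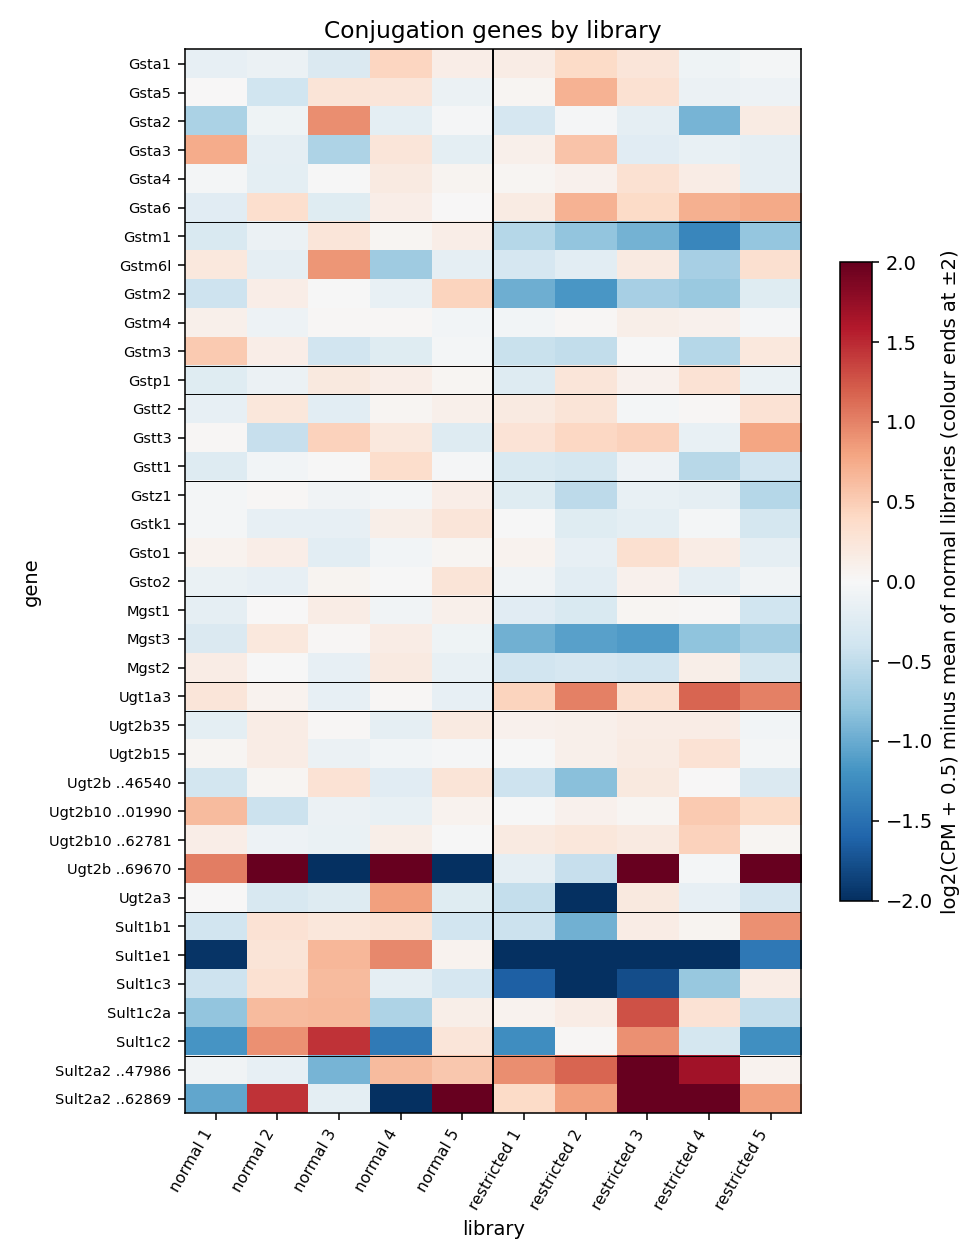
Log2(CPM + 0.5) of each member in each library minus the mean of the normal libraries, with families separated by lines and colours ending at ±2. Mgst3 and Gstm1 are blue and Ugt1a3 is red in every restricted library, whereas the SULT rows and Ugt2b ENSRNOG00000069670 vary within groups.

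Per length, in the deposited FPKM (fragments scaled by gene length and depth), the members summed to 3597 ± 334 in the normal and 3390.1 ± 227 FPKM in the restricted libraries (SD, n = 5 per group), or 1.08% to 1.36% of all FPKM in a library. The 5 highest rows, Mgst1, Ugt2b35, Ugt2b15, Gsta1 and Gsta5, made up 46.3% of the members' FPKM. Mgst1 had 485 ± 35.5 and 436 ± 34.3 FPKM in the normal and restricted groups, and Ugt2b35 had 338 ± 32.8 and 364 ± 20.9 FPKM. By family the sum was 557 ± 189 and 273 ± 167 FPKM for SULT1, and 155 ± 62.6 and 342 ± 147 FPKM for SULT2. Restricted 5 stood apart here, with 166 FPKM for Sult1c3 and 137 FPKM for Sult2a2 (ENSRNOG00000047986), beside normal means of 145 and 131 FPKM. It had 308 FPKM for Sult1b1 and 78.4 FPKM for Sult1e1, beside normal means of 157 and 239 FPKM. In restricted 1 to 4 the diet and the absence of Kdm5d cannot be told apart. For the mu class it was 227 ± 34.8 and 148 ± 29.2 FPKM, and for UGT2 1057 ± 55.3 and 1059.6 ± 44.8 FPKM. The gene length that the FPKM imply was 1567 bases for Mgst3, 5886 for Gstm1, 6543 for Gstm6l and 18100 for Ugt1a3. Levels compared between genes rest on these lengths: Ugt1a3 ranked 3 of the 37 by CPM and 16 by FPKM, and Gstm1 ranked 4 and 11.

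Companion genes supply the donors, remove the products or regulate the enzymes. Of 12 tested genes of glutathione supply 0 passed (median log2 fold change −0.16, with 3 positive), and those with the smallest p were Ggct (−0.46, edgeR adjusted p 0.128), Cth of cysteine synthesis (−0.42, 0.152) and Oplah (−0.26, 0.295). Of 6 genes that supply UDP-glucuronic acid 0 passed. Those with the smallest p were Pgm1, a phosphoglucomutase, which lay below the normal mean in all 5 restricted libraries (−0.29, unadjusted p 0.0114, edgeR adjusted p 0.122), Pgm2 (0.30, 0.290) and Slc35b1 (−0.17, 0.329). Ugdh, which makes UDP-glucuronic acid, had 143 ± 12.6 and 142 ± 23.2 CPM (SD, n = 5; log2 fold change −0.014). Of 8 genes of sulfate and PAPS supply 0 passed. Among these Suox, which oxidises sulfite, had a log2 fold change of −0.36 (edgeR adjusted p 0.157), the PAPS synthase Papss1 −0.41 (0.205) and the sulfate carrier Slc26a1 −0.26 (0.230). Over the 3 supply lists 6 genes had an unadjusted p under 0.05, beside 20.1% of all genes, and DESeq2 and limma-voom called 0. Of 6 deconjugating enzymes 0 passed, and 1, the sulfatase Arsb (−0.36), had an unadjusted p under 0.05 (0 in DESeq2 and limma-voom).

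Of 7 exporters of conjugates 0 passed. Abcg2, which exports sulfated and glucuronidated compounds, had 24.7, 33.4, 33.9, 26.3 and 27.4 CPM in the normal libraries and 17.8, 5.72, 9.67, 20.1 and 18.9 CPM in the restricted ones. The groups did not overlap, but the log2 fold change of −1.01 ± 0.30 missed the threshold (edgeR adjusted p 0.0961). Abcc5 and Abcc3 had log2 fold changes of 0.59 (adjusted p 0.100) and 0.95 (0.187). Abcg2, Abcc5 and Abcc3 were called in DESeq2 and 1 exporter in limma-voom, beside 1049 and 482 of all 12367 genes. Among 13 other conjugating enzymes 1 passed: Tpmt, which methylates thiopurines, fell from 29.2 ± 2.01 to 20.5 ± 2.02 CPM (SD, n = 5; log2 fold change −0.51 ± 0.09, edgeR adjusted p 0.0118), with no overlap of the groups, and gave −0.38 with Kdm5d as a covariate (adjusted p 0.257). Glyatl2, of the glycine acyltransferase family, did not pass, with a log2 fold change of 0.52 (edgeR adjusted p 0.0611). Of these 13 enzymes 6 had an unadjusted p under 0.05 in edgeR, beside 20.1% of all genes. DESeq2 called 4 of them, Tpmt and Glyatl2 included, and limma-voom 2.

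Of 19 regulators tested 2 passed in edgeR, both lower, and 7 had an unadjusted p under 0.05, beside 4.09% and 20.1% of all genes. DESeq2 called 6 of the 19, Nr1i3 and Nr1i2 among them, limma-voom 3, and edgeR with Kdm5d as a covariate 1. Of all 12367 genes these fits called 1049, 482 and 121. Arnt, the partner of the aryl hydrocarbon receptor, fell from 47.6 ± 2.76 to 36.5 ± 2.20 CPM (log2 fold change −0.39 ± 0.08, edgeR adjusted p 0.0172), and Stat5a, which carries signals of the growth hormone receptor, fell from 11.2 ± 1.22 to 7.49 ± 0.840 CPM (−0.57 ± 0.13, edgeR adjusted p 0.0260). With Kdm5d as a covariate their adjusted p were 0.316 and 0.461. Nr1i3, which encodes the xenobiotic receptor CAR, had 30.9, 55.8, 27.8, 26.4 and 22.9 CPM in the normal libraries and 66.2, 53.8, 48.9, 62.9 and 53.8 CPM in the restricted ones. Normal 2 lay inside the restricted range and the other 4 normal libraries lay below it. The log2 fold change of 0.80 ± 0.22 did not pass (edgeR adjusted p 0.0694). Nr1i2, which encodes the receptor PXR and was chosen after its values were seen, had 102 ± 22.6 and 162 ± 41.7 CPM (log2 fold change 0.67, edgeR adjusted p 0.0787), and 0.082 in restricted 5 alone. Of 9 NRF2 and aryl hydrocarbon receptor targets outside these families 0 passed, at an unadjusted p of 0.05 and in DESeq2 and limma-voom as well, and the median log2 fold change was −0.080. Of 9 sex-biased liver genes 0 passed with all 10 libraries and 3 had an unadjusted p under 0.05 (2 called in DESeq2 and 3 in limma-voom). Their median log2 fold change was −1.64, with 2 positive. Cyp2c11 and Cux2 were picked from these after the values were seen, and they do not stand for the whole list. Cyp2c11, a cytochrome P450 of adult male rat liver, had 116, 831, 622, 192 and 181 CPM in the normal libraries, 4.54, 2.48, 6.43 and 3.21 CPM in restricted 1 to 4 and 151 CPM in restricted 5. Restricted 5 lay inside the normal range and restricted 1 to 4 below it. For Cux2, known to be higher in female liver, restricted 1 to 4 had 24.0, 18.3, 13.6 and 18.6 CPM, above the 1.37, 3.31, 1.07, 5.48 and 1.62 CPM of the normal libraries and the 1.74 CPM of restricted 5.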

How the data were processed

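Gene expression was measured by RNA sequencing in 10 rat liver libraries. TRIpure extraction and an NEBNext Ultra kit are named per the labels' protocols. The submitters' processing notes name HTSeq, fastp, bcl2fastq and build rn7, and the series' design text names a Q30 filter and HISAT2. Versions, annotation and strand setting were not stated. Per the file headers, the deposited raw counts are whole numbers per gene and the deposited FPKM are scaled by length and depth. The authors' deposited fold change, its log2 and their p-value compare restricted with normal, with a tool that was not stated.

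Counts were fitted with edgeR 4.0.16 (R 4.3.3): filterByExpr (minimum count 10) kept 12367 of 12555 rows, TMM scaling, robust quasi-likelihood test, two-sided, Benjamini-Hochberg adjustment over all genes tested. SE and 95% intervals are from this fit. CPM use TMM-scaled library sizes. No companion p was adjusted over its list. Described in full are members past adjusted or unadjusted p 0.05, the 2 highest by FPKM of each family and those whose groups do not overlap (24 rows), and of companion lists up to 3 genes by p. A gene among these is not reported here. Members and lists were chosen with earlier results of these data known, and the motifs, Ugdh, Cux2, Cyp2c11 and the members outside that rule were picked after the values were seen. Gene names are the table's. Promoters are from RefSeq (GRCr8), and no rn7 coordinates were used. The test was tested on simulated data, drawn without any split within the restricted group, so that check does not cover such a split. DESeq2 1.42.0 and limma 3.58.1 were alternatives, and an adjusted p that DESeq2 left out was not counted. Any 2 libraries of a group differed by a chi-square of at least 21.2 per degree of freedom, so no library was a repeat of another. Same-numbered libraries correlated at −0.19 to 0.12 in their deviations from the group means. The labels state no pairing, and these weak correlations do not exclude one, so the libraries were treated as unpaired.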

Additional observations from a re-analysis of the deposited data

Results flagged for a closer look

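In 74 groups of 5 libraries (37 members in 2 groups), 4 had a library far from the other 4 by Dixon's criterion for 5 samples, and chance gives about 5% of groups, or 3.7. Sult1e1 in restricted 5 was 77.6 CPM against 0 to 0.553 CPM in the other restricted libraries, and restricted 5 is the restricted library with Kdm5d counts. Mgst2 in restricted 4 was 73.6 CPM against 51.9 to 53.6 CPM. Gsta2 in normal 3 was 1078 CPM against 365 to 553 CPM in the other normal libraries. Ugt2a3 in normal 4 was 200.1 CPM against 89.7 to 114 CPM.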

How the results depend on the processing

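The 4 calls among members became 7 in DESeq2 (1049 genes in all against 506), 0 with Kdm5d as a covariate (121 genes) and 1 in restricted 5 alone (802 genes). Of these genes 102 were higher and 19 lower with the covariate, and 632 and 170 in restricted 5 alone, against 231 and 275 with all libraries and the main settings. Leaving out 1 library gave 2 to 7 members, with 2 without normal 3, normal 4, normal 5 or restricted 2 and 7 without restricted 5, and 213 to 470 genes. The fit with the replicate block, whose numbers are not known to pair the libraries, called 3 members and 265 genes. Ugt1a3 was not called there (edgeR adjusted p 0.0539). Normal 1 and normal 3 correlated best with the restricted library of their own number, and the other normal libraries did not. RLE and upper-quartile scaling, no filter and the stricter filter (1 CPM in 5 libraries) gave 4 members each, with 502, 516, 514 and 501 genes. In limma-voom 5 members and 482 genes were called. No scaling moved the median log2 fold change of all genes by over 0.1.

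Over the 24 members named by rule, 403 of 456 alternative values kept direction and call, 20 lost a call, 8 gained one and 25 changed sign, none of these a called value. With Kdm5d as a covariate, and in restricted 5 alone, the log2 fold changes that changed sign were −0.072 and −0.059 for Gsta1, −0.13 and −0.12 for Gsta5, 0.26 and 0.22 for Gstm6l, −0.14 and −0.14 for Gstp1, 0.19 and 0.092 for Sult1c3, −0.10 and −0.031 for Sult2a2 ENSRNOG00000047986, −0.16 and −0.053 for Sult2a2 ENSRNOG00000062869, −0.065 and −0.059 for Ugt2b35, and −0.047 and −0.042 for Ugt2b15. With 1 library left out, Gstm6l ran from −0.34 to 0.083, Gstp1 from −0.0053 to 0.13 and Sult1b1 from −0.27 to 0.22. Sult1b1 was −0.044 in limma-voom and −0.060 with the replicate block. The cause was not tested. In restricted 5 alone, a lone library is assumed to vary like the normal ones, and the covariate fit rests mainly on it. Depth limits the lowest values: levels under 0.134 to 0.207 CPM, depending on the library, are not told from 0.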
